A study of Mus musculus with 6 samples.

Results

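The genes described here encode the WNT ligands, their receptors and the proteins that modulate or relay the signal. They were chosen by symbol: protein-coding mouse genes named Wnt, Fzd, Rspo, Sfrp or Dkk with a number, together with Frzb, Lrp5, Lrp6, Ror1, Ror2, Ryk, Ctnnb1, Axin1, Axin2, Apc, Lef1, Tcf7, Tcf7l1, Tcf7l2, Lgr4, Lgr5 and Lgr6. This gave 58 genes of the 21031 protein-coding genes with a curated RefSeq transcript. Their H3K27me3 state was read from ChIP-seq of mouse granulosa cells (GCs), the somatic cells that surround the oocyte and make estradiol. H3K27me3, histone H3 trimethylated on lysine 27, is placed by the Polycomb enzyme EZH2 and marks silent genes. Wild type C57BL/6J mice of 8 to 9 weeks were the source of all 6 samples. Of these, 3 were control cultures with no agent and 3 were treated with dihydrotestosterone (DHT), an androgen that cannot be aromatized to estrogen, at 25 nM for 24 h. GCs of many mice were collected and plated in 6 dishes, so the samples are culture dishes and not separate animals.

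WNT proteins are secreted, lipid-modified ligands. They bind a Frizzled receptor together with the co-receptor LRP5 or LRP6, which stops the complex built on AXIN and APC from sending β-catenin to degradation. β-catenin then joins TCF/LEF factors on DNA and switches on target genes. R-spondins act through LGR receptors to keep Frizzled proteins on the cell surface, whereas DKK and SFRP proteins block the signal outside the cell. In the ovary the pathway is known from WNT4, RSPO1 and β-catenin, which direct the early gonad to the female fate, and from its part in follicle growth and luteal formation. WNT genes are also known as developmental genes that Polycomb can silence.

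For each group the files hold 1 list of peaks pooled over its samples and the genes that these peaks overlapped, once for gene bodies and once for promoters (within 1 kb of the transcription start site). A gene is either listed or not, with no value per sample. Thus the counts come without a spread between replicates, sequencing depth is unknown, and a DHT effect could not be tested at any gene. The control list was made from 16345 peaks with a median width of 431 bp, and the DHT list from 3975 peaks with a median width of 319 bp. Of the control peaks 61.4% had a q-value above 0.01, against 34.3% of the DHT peaks, so many gene calls can rest on peaks near the limit of 0.05. A gene that is not listed had no peak at this limit, which does not show that it lacked the mark. GC identity could not be checked either, because the files hold no expression levels. Of 8 GC markers, Fshr and Cyp19a1 had a gene body peak in control. The other lists of markers had 1 of 6 theca and stroma genes, 0 of 4 oocyte genes, 1 of 3 endothelial genes and 1 of 3 immune genes with such a peak. The share over all protein-coding genes was 13.6%, and it was not computed at the lengths of the markers. After DHT the counts were 1 GC, 0 theca and stroma, 0 oocyte, 1 endothelial and 1 immune gene.

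To see which WNT genes carried the mark, the gene body lists were searched. In control GCs, 10 of the 58 genes were listed (17.2%, 95% Wilson interval 9.64 to 28.9%), where the share over all protein-coding genes was 13.6%. These were Apc, Dkk2, Lef1, Lgr5, Lrp6, Ror1, Ror2, Rspo2, Ryk and Wnt8a. After DHT 3 genes were listed (5.17%, interval 1.78 to 14.1%), against 4.96% of all protein-coding genes. All 3, the R-spondin Rspo2, the R-spondin receptor Lgr5 and the transcription factor Lef1, were in the control list as well. Both backgrounds lay within the intervals of the WNT genes. Over the genome, 16.9% of DHT peaks overlapped a control peak by at least 1 bp. A gene can therefore be in both lists through different peaks, and peaks were not located within these genes. On the chromosomes of Rspo2, Lgr5 and Lef1 (15, 10 and 3), control had 655, 940 and 1149 peaks and DHT 157, 257 and 231.

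The control list alone held 7 WNT genes (12.1%, interval 5.97 to 22.9%, background 10.6%), both lists held 3 (background 3.01%), and the DHT list alone held 0 (background 1.95%). A count of 0 of 58 allows a share of up to 5.17%. Put differently, 3 of the 10 control WNT genes were also DHT genes (30%, interval 10.8 to 60.3%), compared with 22.2% of all control genes. The other direction gave 3 of 3, compared with 60.6% of all DHT genes. Intervals on these shares cover counting error only.

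**Figure D1:**
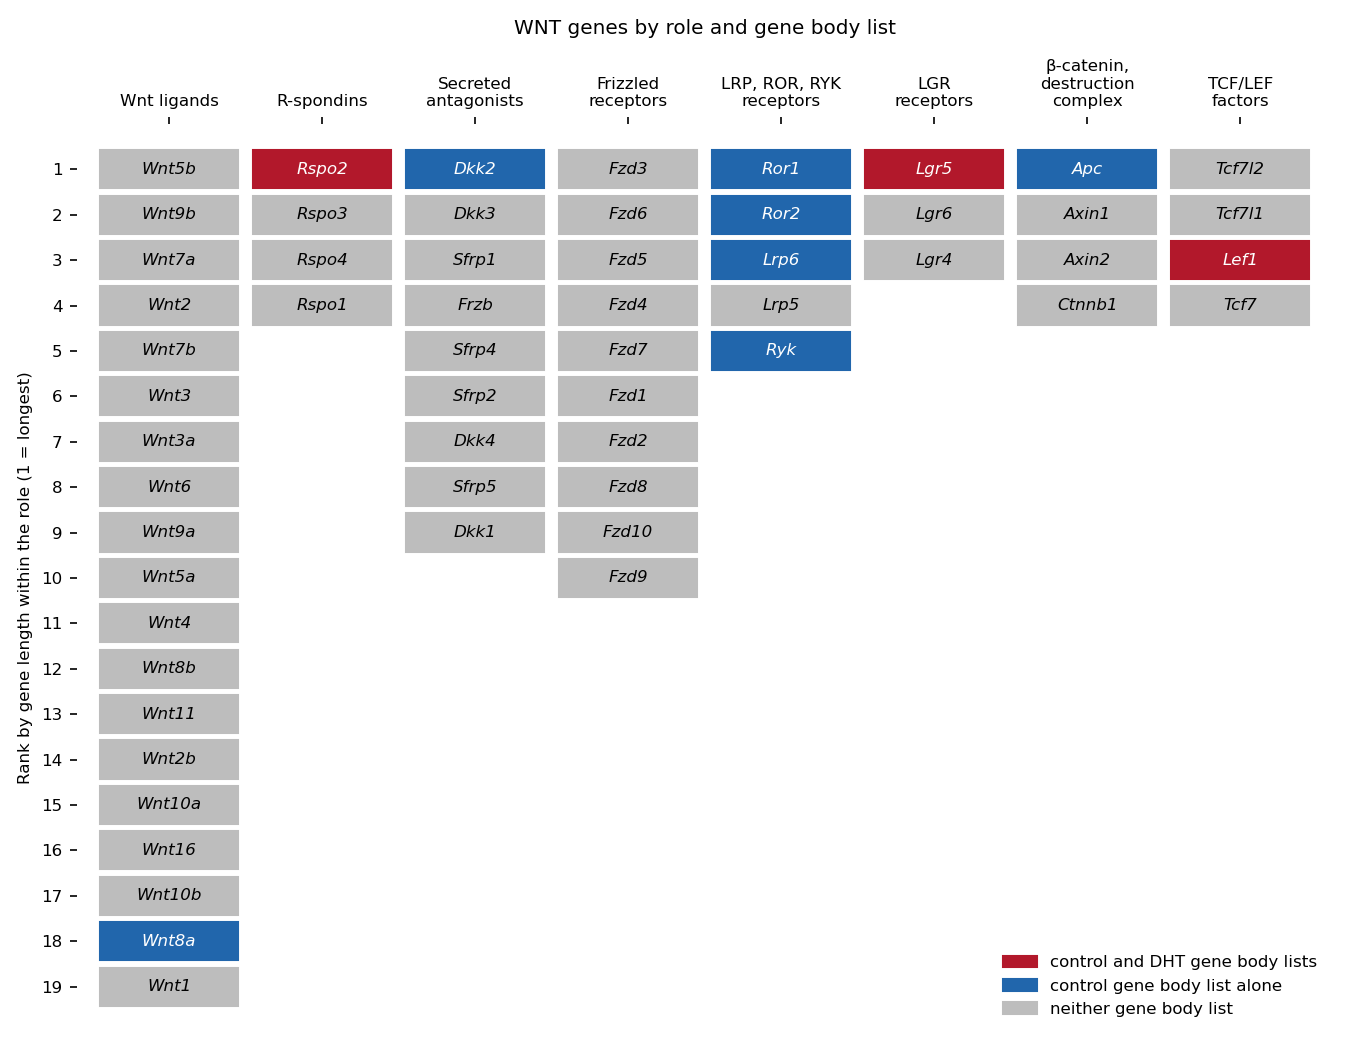
Each box is 1 of the 58 WNT genes, in columns by role and ordered within a column by gene length, with colour for the gene body list it was in. The 3 genes in both lists are the R-spondin Rspo2, its receptor Lgr5 and the TCF/LEF factor Lef1, while 18 of 19 Wnt ligands and all 10 Frizzled receptors are in neither list. All genes of their lengths would give 2.34 control genes among the ligands and 0.469 among the Frizzled receptors.

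Among the 19 Wnt ligands, Wnt8a alone was listed, in control and not after DHT. It lies on chromosome 18. WNT8A is a ligand of early embryonic patterning. The other 18 ligands were in neither list. All genes of the lengths of the 19 ligands would give 2.34 control genes and 0.706 DHT genes. The 19 genes range from 3.97 to 112 kb, with a median of 22.9 kb and 3 under 10 kb. They included Wnt4, Wnt5a, Wnt2 and Wnt11, ligands that were named here after their list state was seen because they are known from ovarian tissue. Wnt genes also lie as neighbours. The pairs Wnt6 and Wnt10a, Wnt3a and Wnt9a, Wnt9b and Wnt3, and Wnt10b and Wnt1 are next to each other in the genome, and none of these 8 genes was listed in either group.

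The R-spondins and their receptors each had 1 listed gene, and it was in both lists. All genes of their lengths would give 0.976 control genes and 0.321 DHT genes among 4 R-spondins. Among 3 LGR receptors they would give 1.26 and 0.45. Rspo2, on chromosome 15 with a length of 151 kb, was listed in control and after DHT, whereas Rspo1, Rspo3 and Rspo4 were in neither list. Rspo1 is the R-spondin of female sex determination. Of the LGR receptors, Lgr5, on chromosome 10 and 137 kb long, was in both lists, and Lgr4 and Lgr6 were in neither. LGR5 is best known as a marker of epithelial stem cells. The related Lgr6 and Lgr4 are 122 and 96.6 kb long. Among the R-spondins the unlisted genes are shorter than Rspo2, at 22.7 kb (Rspo1), 32.0 kb (Rspo4) and 82.8 kb (Rspo3).

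Of the 9 secreted antagonists, 1 was a control gene and 0 were DHT genes. All genes of their lengths would give 0.83 control genes and 0.227 DHT genes among 9. Dkk2, which binds LRP5 and LRP6 and keeps them from the ligand, was in the control list alone. It lies on chromosome 3. Its 3 paralogs Dkk1, Dkk3 and Dkk4 and the Frizzled-like proteins Sfrp1, Sfrp2, Sfrp4, Sfrp5 and Frzb were in neither list. Dkk2 is the longest of these 9 genes, at 95.04 kb, and the others range from 3.62 to 43.5 kb.

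None of the 10 Frizzled genes was listed in control or after DHT. These encode the receptors that bind WNT directly. Most are very short: the median was 4.59 kb, 8 of 10 were under 10 kb, and 6 have no intron in their curated transcripts. Fzd3, at 70.0 kb, is the longest. All genes of the lengths of these 10 would give 0.469 control genes and 0.128 DHT genes.

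The co-receptors and the remaining WNT receptors followed. Of the 5 genes Lrp5, Lrp6, Ror1, Ror2 and Ryk, 4 were control genes and 0 were DHT genes. All genes of these lengths would give 2.69 control genes (53.8%) and 1.17 DHT genes (23.5%) among 5. Lrp6 encodes the co-receptor that carries the signal to AXIN, ROR1 and ROR2 are receptors for WNT5A outside the β-catenin branch, and RYK is a WNT receptor with an inactive kinase domain. Ror1, on chromosome 4, is the longest of the 58 genes, at 349 kb. Within this group it is followed by Ror2 (chromosome 13) at 177 kb, Lrp6 (chromosome 6) at 120 kb and Lrp5 at 102 kb. Ror1 is also the 1 WNT gene of 300 kb and over, a class in which 89% of all genes were control genes and 52.5% were DHT genes. Over all control genes of 300 kb and over, 54.9% were also in the DHT list, and Ror1 was not. Lrp5, the paralog of Lrp6, was the 1 unlisted gene, although it is longer than Ryk (chromosome 9), at 73.4 kb.

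Inside the cell, Apc, the scaffold of the complex that degrades β-catenin, was in the control list alone. It spans 102 kb on chromosome 18. Axin1, Axin2 and Ctnnb1, which encodes β-catenin itself, were in neither list. All genes of the lengths of these 4 would give 0.976 control genes and 0.321 DHT genes. Of the TCF/LEF factors, Lef1 was in both lists, and Tcf7, Tcf7l1 and Tcf7l2 were in neither. All genes of the lengths of these 4 factors would give 1.8 control genes and 0.648 DHT genes. Lef1 spans 114 kb on chromosome 3. Tcf7l2 at 192 kb and Tcf7l1 at 163 kb are longer, and they are the 2 longest unlisted genes, followed by Lgr6, Wnt5b at 112 kb and Lrp5.

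Because a long gene has more room for a peak, the lists were next read by gene length. Listed WNT genes had a median length of 117 kb, compared with 26.9 kb for the 48 unlisted ones. For protein-coding genes as a whole the medians were 107 kb in the control list, 142 kb in the DHT list and 13.8 kb outside both lists. Of the 12 longest WNT genes, those of 102 kb and over, 7 were control genes and 3 were DHT genes. No WNT gene shorter than Lef1 was in the DHT list.

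**Figure D2:**
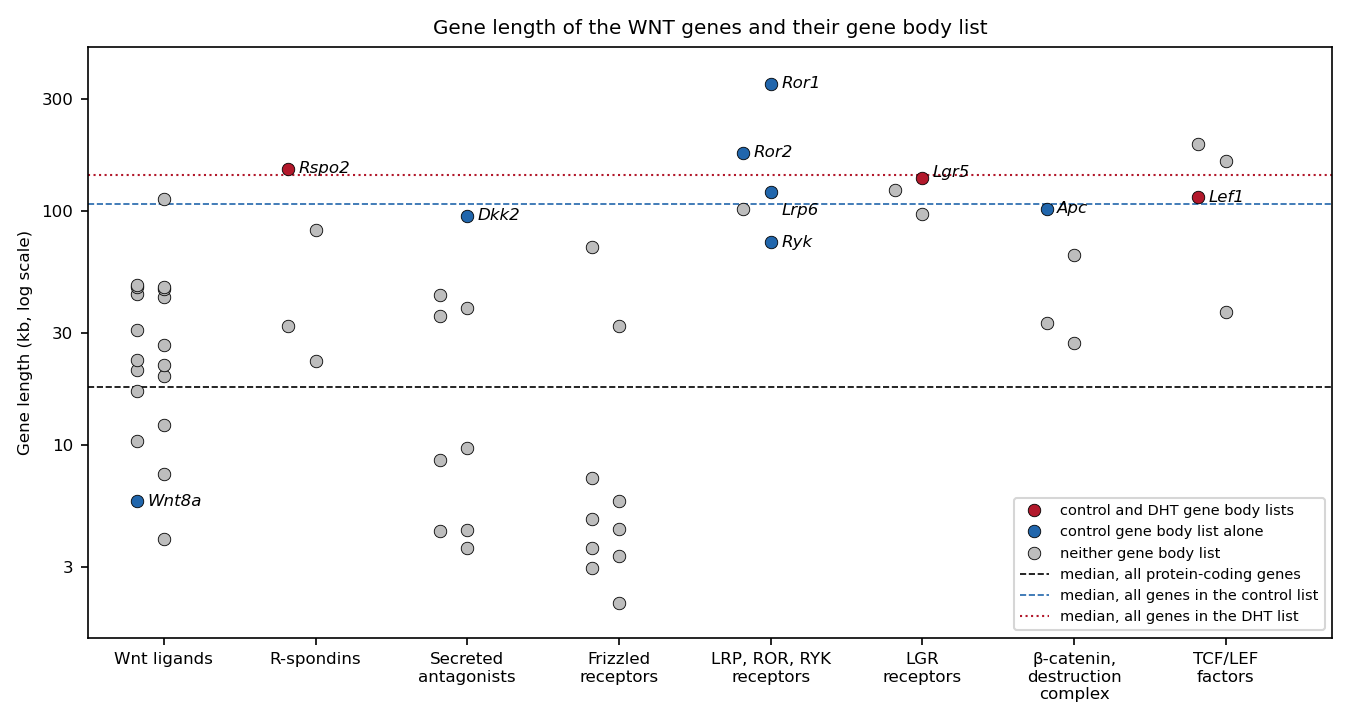
Points are the 58 WNT genes by role, with gene length in kb on a log axis and colour for the gene body list, and the lines are medians over all protein-coding genes, over all control genes and over all DHT genes. Listed genes sit near or above 73.4 kb, apart from Wnt8a at 5.74 kb.

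The WNT genes were then compared with all genes by class of length. Between 100 and 300 kb, 6 of 11 WNT genes were in the control list (54.5%, interval 28.0 to 78.7%), against 53.5% of all genes of that length. In the same class 3 of 11 were in the DHT list (27.3%, interval 9.75 to 56.6%, background 19.8%). These 3 genes were also control genes, and over all control genes of that class 23.2% were in the DHT list too. Between 30 and 100 kb, Dkk2 and Ryk were the control genes among 20 WNT genes (10%, interval 2.79 to 30.1%), where the background was 19.5%. Neither gene was in the DHT list, where 10.3% of all control genes of that class were. Between 10 and 30 kb 0 of 10 were listed in control, with a background of 5.12%. Below 100 kb the DHT list held 0 WNT genes: 0 of 20 between 30 and 100 kb (background 5.36%), 0 of 10 between 10 and 30 kb (1.56%) and 0 of 16 under 10 kb (0.258%).

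Wnt8a was the exception. It is 5.74 kb long and was 1 of 16 WNT genes under 10 kb in the control list (6.25%, interval 1.11 to 28.3%). Over all genes of that length the control list held 72 of 7365, or 0.978%. This background lies just below the interval, but the share of the WNT genes rests on Wnt8a alone. Of those 72 genes 8.33% were in the DHT list too, and Wnt8a was not. Its relative Wnt8b, at 20.8 kb, was in neither list.

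If each WNT gene is given the share of its own length class, the mean over the 58 genes was 19.6% for the control list, or 11.3 genes, where 10 were listed. For the DHT list it was 6.85%, or 3.97 genes, where 3 were listed. For the control list alone it was 15.6%, or 9.04 genes, where 7 were listed. For both lists together it was 3.98%, or 2.31 genes, where 3 were listed. All of these background values lay within the Wilson intervals of the WNT genes.

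**Figure D3:**
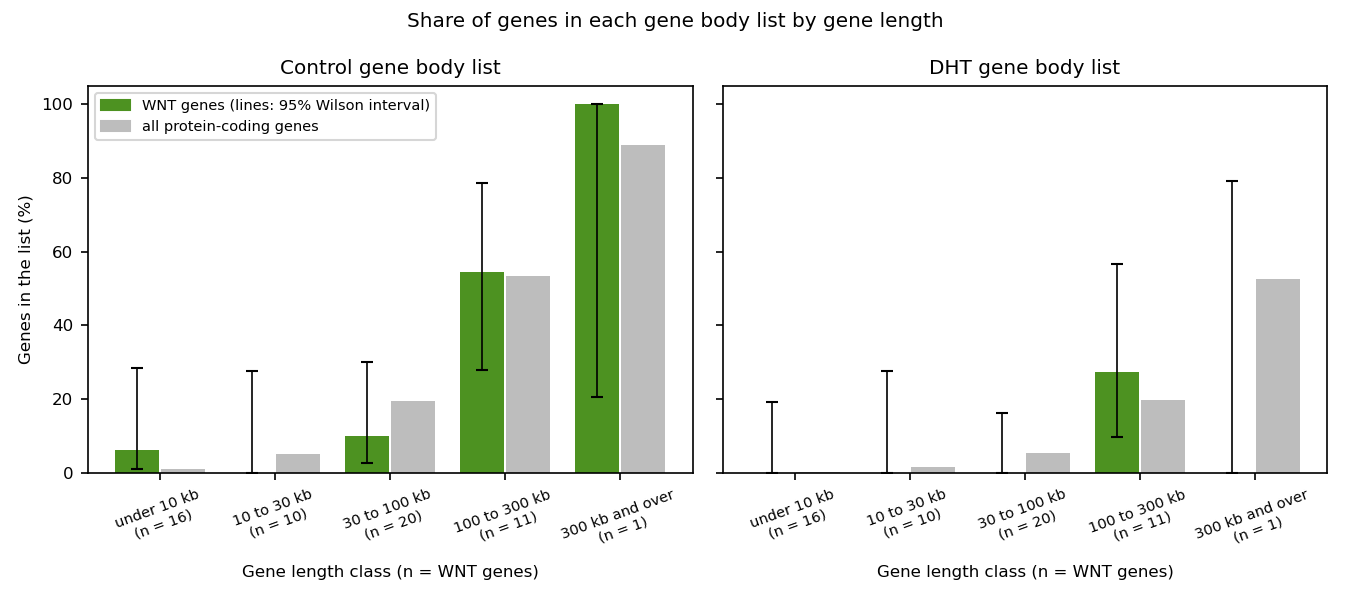
Bars give the percent of genes listed for control (left) and for DHT (right) by class of gene length, for the WNT genes with 95% Wilson intervals and for all protein-coding genes. In both panels the share rises with length for all genes, and the WNT genes between 100 and 300 kb stand at 54.5% and 27.3% beside 53.5% and 19.8%.

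The surroundings of the 10 control genes were examined to ask whether neighbouring genes were marked with them. Of these 10 genes, 2 had an immediate protein-coding neighbour in the control list (20%, Wilson interval 5.67 to 51%). The share was 43.4% over all control genes and 23.6% over all protein-coding genes, both within that interval. Apc has as its neighbour, at a gap of 213 kb, Epb41l4a, which is 211 kb long and was in both lists. Rspo2 has, at a gap of 344 kb, Angpt1, an angiopoietin gene of 252 kb that was in the control list alone. Apc and Wnt8a are on the same chromosome, 220 kb apart with 4 protein-coding genes between them, and Lef1 and Dkk2 are 861 kb apart, also with 4 genes between. The immediate neighbours of the other 8 genes were in neither list.

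A peak inside a gene cannot always be assigned to that gene. In the annotation, Apc, Lgr5, Lrp6, Ror1 and Ror2 each share part of their span with another gene. For Lgr5 this is the protein-coding gene A930009A15Rik, and for the others lncRNA genes or a pseudogene. None of these overlapping genes was matched in a gene body list. Only genes with a curated transcript could be matched, so for an overlapping gene without one the lookup could not find a listing. The position of a peak within a gene was not recomputed, since the peaks are in mm9 and the annotation used here is in GRCm38. Exons of curated transcripts made up 2.02 to 26.5% of the span of the listed genes, with a median of 3.69%, and 14.8% at the median unlisted gene. These sets differ in length, with medians of 117 kb and 26.9 kb, and the exonic shares were not matched for it. The longest unlisted genes, Tcf7l2, Tcf7l1, Lgr6, Wnt5b and Lrp5, had 2.41, 1.77, 2.97, 2.36 and 5.08%. In Rspo2 the exonic part was 2.23%, in Lgr5 3.43% and in Lef1 3.48%.

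Promoters were read next. Neither promoter list held any of the 58 WNT genes. The control one held 0.637% of all protein-coding genes and the DHT one 0.195%. A count of 0 of 58 allows up to 5.17% in each, so a share equal to the background was not detectable with this number of genes. Promoters of Polycomb target genes are known for their CpG content. It was therefore computed from RefSeq windows of 300 bases in GRCm38.p6, 250 before and 50 after a start site, as the observed number of CpG dinucleotides over the number given by the C and G content. Of the WNT genes 39 had such a window. With each gene at the median of its windows, their median ratio was 0.765, compared with 0.584 over 16853 protein-coding genes, and 31 of 39 exceeded 0.6 (79.5%), compared with 48.7%. Genes in the control promoter list had a median ratio of 0.413. The median of the WNT promoters was thus above that of promoters that did overlap a control peak.

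The listed genes Apc, Lgr5, Lrp6, Rspo2 and Wnt8a had no window, so of the genes in both lists only Lef1 is covered. Among the 5 listed WNT genes with a window, the ratio was 1.27 in Ryk, 0.765 in Ror2, 0.499 in Dkk2 and 0.384 in Ror1. Lef1 has 4 windows, for separate start sites, with ratios from 0.35 to 0.62. The 40 windows of the 34 unlisted genes ranged from 0.194 in Wnt5b to 1.21 in Ctnnb1, and the median over genes, each at the median of its windows, was 0.78. Ryk lay above that range and the other listed windows within it.

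**Figure D4:**
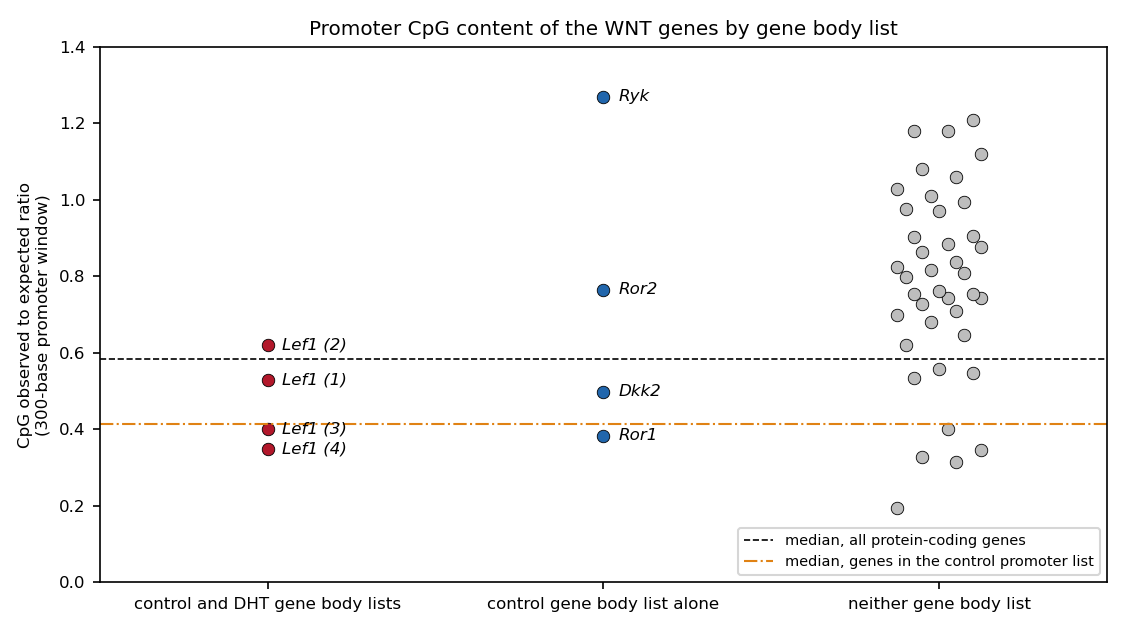
Points are RefSeq promoter windows of WNT genes by gene body list, with the CpG observed to expected ratio on the vertical axis, and the lines are the medians of all protein-coding genes (0.584) and of genes in the control promoter list (0.413). The numbers after Lef1 mark its 4 windows. The window of Ryk at 1.27 lies above the 40 windows of unlisted genes, which range from 0.194 to 1.21, and the other listed windows lie among them.

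To show how far the listed genes differ in CpG content, the sequence before the outermost annotated start is given for Lef1 (in both lists), for Dkk2, Ror1, Ror2 and Ryk (control list alone), and for Tcf7l2 (the longest unlisted gene). Capitals mark each CpG. The sequences are from RefSeq, build GRCm38.p6, and read 5′ to 3′ along the gene. They lie at chr3:131110047-131110296 on the plus strand for Lef1, chr3:132085042-132085265 (plus) for Dkk2, chr4:100095541-100095790 (plus) for Ror1, chr13:53286125-53286374 (minus) for Ror2, chr9:102834670-102834919 (plus) for Ryk and chr19:55741560-55741796 (plus) for Tcf7l2.
Lef1: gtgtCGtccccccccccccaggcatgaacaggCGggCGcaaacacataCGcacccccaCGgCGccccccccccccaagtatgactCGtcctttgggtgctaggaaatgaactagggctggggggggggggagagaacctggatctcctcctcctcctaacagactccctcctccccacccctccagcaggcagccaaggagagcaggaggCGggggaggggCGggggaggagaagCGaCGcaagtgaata
Dkk2: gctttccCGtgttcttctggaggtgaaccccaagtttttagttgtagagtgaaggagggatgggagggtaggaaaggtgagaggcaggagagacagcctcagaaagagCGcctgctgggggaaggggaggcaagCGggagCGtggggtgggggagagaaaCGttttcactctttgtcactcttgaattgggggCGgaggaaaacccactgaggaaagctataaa
Ror1: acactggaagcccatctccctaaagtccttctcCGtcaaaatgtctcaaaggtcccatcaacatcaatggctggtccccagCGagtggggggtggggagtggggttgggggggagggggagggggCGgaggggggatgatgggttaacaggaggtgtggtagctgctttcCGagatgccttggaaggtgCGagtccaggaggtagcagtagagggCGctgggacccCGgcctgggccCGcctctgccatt
Ror2: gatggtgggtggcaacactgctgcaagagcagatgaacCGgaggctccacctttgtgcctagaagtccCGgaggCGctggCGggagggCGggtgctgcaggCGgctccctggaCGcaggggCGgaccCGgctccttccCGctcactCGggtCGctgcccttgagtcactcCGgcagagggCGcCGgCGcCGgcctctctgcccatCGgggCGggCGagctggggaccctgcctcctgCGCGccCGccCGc
Ryk: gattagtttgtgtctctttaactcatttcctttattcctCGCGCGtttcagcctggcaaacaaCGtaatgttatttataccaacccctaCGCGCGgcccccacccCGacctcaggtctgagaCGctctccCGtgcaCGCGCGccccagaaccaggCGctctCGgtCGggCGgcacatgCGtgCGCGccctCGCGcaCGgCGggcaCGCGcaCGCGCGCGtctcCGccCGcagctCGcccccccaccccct
Tcf7l2: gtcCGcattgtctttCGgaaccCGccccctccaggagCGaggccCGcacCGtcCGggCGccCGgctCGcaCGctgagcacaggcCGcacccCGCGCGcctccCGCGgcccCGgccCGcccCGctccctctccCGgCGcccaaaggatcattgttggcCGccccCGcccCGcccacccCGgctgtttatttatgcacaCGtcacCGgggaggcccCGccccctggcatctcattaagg

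Lef1 had 11 CpG in these 250 bases, Ror1 8, Ror2 24 and Ryk 33. In Dkk2 there were 6 in 224 bases and in Tcf7l2 29 in 237 bases. Ryk and Ror1 were both in the control gene body list alone, with the highest and the lowest ratio of these 6 sequences, at 1.33 and 0.354. Lef1, which was listed after DHT as well, had 0.4.

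The same windows were searched for CTTTGAA and CTTTGTT on either strand, forms of the motif to which TCF/LEF factors bind. Other forms of this motif were not searched. One of these forms was found in 4 of 48 windows of WNT genes (8.33%), compared with 9.08% of all 20488 windows of protein-coding genes. The 4 genes were Dkk1, Fzd7, Tcf7l2 and Wnt3, and none of them was listed. A half-site of the androgen receptor motif, AGAACA on either strand, was in 8 of 48 windows (16.7%), compared with 16.1% of all windows. Of the listed genes, Dkk2 and Lef1 had it. CTTTGTT and the other strand of AGAACA can overlap in their letters.

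The authors' lists of genes altered by DHT that had a peak in the gene body or were linked to an enhancer held 0 of the 58 WNT genes. Altered genes with neither link are not in these lists and were not looked up. Each count of 0 allows up to 5.17%, where the lists held 0.0999% (upregulated) and 0.0666% (downregulated) of all genes for gene bodies, and 0.281% and 0.147% for enhancers. Lrp6, Ror1, Ror2, Ryk, Apc, Dkk2 and Wnt8a, the control genes not listed after DHT, were thus in none of these lists, and expression levels were not analysed here.

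Further genes of the pathway were read from a list of 62. In control 12 were listed (19.4%) and after DHT 6 (9.68%), where the background at their gene lengths was 24.2% and 9.57%. Of 15 secreted and membrane modulators 5 were control genes (33.3%) and 3 were DHT genes (20%), with backgrounds at their lengths of 30.6% and 13.2%. Wif1, a secreted WNT binder, Znrf3, the ligase that removes Frizzled and is held back by R-spondin and LGR proteins, and Gpc3, a glypican, were in both lists, while Gpc4 and Gpc6 were in the control list alone. Rnf43, the sister ligase of Znrf3, is 72.5 kb long and was in neither list. Of 19 cytoplasmic genes 1 was listed, in control: Btrc, which marks β-catenin for degradation. The backgrounds at the lengths of these genes were 15.9% in control and 5.24% after DHT. Of 13 nuclear genes 4 were control genes (30.8%, background 26.8%) and 1 was a DHT gene (7.69%, background 10.8%). Tnik was in both lists, and the co-repressor Tle1 with Chd8 and Nlk was in the control list alone. Of 12 planar polarity genes 2 were control genes and 2 were DHT genes (16.7% each, backgrounds 30.3% and 12.4%). Vangl1 and Invs were in the control list alone, and Prickle1 (97.16 kb) and Prickle2 (335.4 kb) in the DHT list alone. The DHT list alone held 1.95% of all protein-coding genes of any length, and its share at these lengths was not computed. The whole DHT list held 5.36% of all genes of 30 to 100 kb and 52.5% of those of 300 kb and over. Of 3 genes for WNT secretion 0 were listed, with backgrounds at their lengths of 8.54% in control and 2.39% after DHT.

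Porcn, which attaches the lipid to WNT proteins, was in the list of upregulated genes linked to an enhancer, and Trabd2b, a protease that inactivates WNT, was in that of downregulated genes. Neither had a gene body peak in either group.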

How the data were processed

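H3K27me3 ChIP-seq of 3 control and 3 DHT-treated GC samples was read from pooled files, and groups followed the labelled agent. The authors mapped reads to mm9 with Bowtie2 2.3.4, kept unique reads and called broad peaks with MACS2 2.1.1 at a q-value of 0.05. How replicates were combined is not given in the sources used here. The deposited peak files give per peak a score, a fold enrichment (a ratio over local background), a −log10 p-value and a −log10 q-value. The deposited gene lists hold symbols alone.

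Symbols were matched in Python 3.11.15 to RefSeq genes of GRCm38.p6 with a curated transcript, older symbols included. Of the control gene body symbols 3133 of 3144 matched, and of the DHT symbols 1142 of 1146. Gene lengths, neighbours and promoter windows come from GRCm38.p6 and were not compared with peak positions. Length classes had limits of 10, 30, 100 and 300 kb. Intervals are 95% Wilson intervals computed in Python and checked on example counts against scipy 1.17.1, with no test of DHT against control. A count of 0 is given with the limit of 3 counts. By rule, every listed gene is named with its lists, length and chromosome, as are the longest unlisted and the shortest listed genes, and the rest are given by counts and ranges. Promoter sequences beyond Lef1 were added after the data were seen. The genes and lists were chosen with earlier results of these data known. Alternatives were other symbol matching, narrower gene sets, other backgrounds, other length classes and stricter peak limits. Plots used matplotlib 3.10.9.

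The labels and the study's methods differ on the number of mice pooled, so none is given.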

Additional observations from a re-analysis of the deposited data

How the results depend on the processing

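No paired analysis was possible because each group has 1 pooled list, with no value per replicate, and leaving out a replicate was not possible for the same reason. Of 46 alternatives over 27 results, 14 were labelled as moved, all of them backgrounds, peak numbers or the overlap of peaks. The other 32 were labelled as the same, though some of their values changed too, as given below. The shares of WNT genes stayed within their intervals, which are wide, and the narrower sets are parts of the same genes. The median width of control peaks fell from 431 to 298 bp at a q-value of 0.01 and to 288 bp at a fold enrichment of 4. Promoter windows of 250 bases changed the median CpG ratio of listed genes from 0.499 to 0.449. Exact symbols changed the state of 0 WNT genes. Among the 50 secreted factors and receptors, 16% were control genes and 4% DHT genes, and among the 42 genes of at least 10 kb 21.4% and 7.14%. Backgrounds moved more: the control share of all genes was 13.6% for protein-coding genes, 11.9% for all annotated genes and 20.3% for genes of at least 10 kb. The DHT share was 4.96%, 4.36% and 7.49%. Equal classes of gene length gave a background at the lengths of the WNT genes of 19.2% and 7.15% in place of 19.6% and 6.85%. Peak numbers fell to 6315 in control and 2612 after DHT at a q-value of 0.01, and to 2612 and 2524 at a fold enrichment of 4, and the gene lists could not be remade at these limits. The overlap of DHT peaks with control peaks, 16.9%, was 9.94% with a reciprocal overlap of 50%. Unknown depth limits all calls of unlisted genes.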
